A study of Caenorhabditis elegans with 2 samples.

Results

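The genes described here are the nuclear hormone receptor genes of Caenorhabditis elegans, taken as every protein-coding gene whose name begins with nhr- in the Ensembl annotation of the ce11 (WBcel235) build. They number 269 of 19985 protein-coding genes. Chromosome V carries 167 of them, and the other 102 lie on IV (33), X (23), I (23), II (15) and III (8). For each gene, ChIP-seq summits were counted at 2 places: within 500 bp of the annotated 5' end on either side, and between the first and last base of the gene.

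Nuclear receptors are transcription factors with a zinc finger DNA-binding domain and, in most members, a ligand-binding domain that responds to small lipophilic molecules. C. elegans has an unusually large family, most of which arose by expansion from an ancestor related to vertebrate HNF4, with many copies in clusters on chromosome V. A smaller set has direct counterparts in insects and vertebrates. Members are known for control of fat metabolism, responses to diet, xenobiotics and pathogens, molting and cell fate.

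The protein profiled was ZTF-4, a zinc finger protein, in whole larvae of the third larval stage (L3) of both sexes. The strain, OP322, carries the unc-119(ed3) mutation on chromosome III and the integrated transgene wgIs322, from which eGFP-tagged ZTF-4 is made. The tagged copy is thus an addition to the genome, and the antibody is recorded under the name of ZTF-4 itself. All data come from 1 group with 2 biological replicates, and library fragments were 150 to 350 bp long. No untagged strain enters the comparisons, and the cells of the larva in which a region was bound cannot be told apart.

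The measurements are the authors' peak lists. The IDR list, thresholded on the irreproducible discovery rate between replicates, holds 704 regions with signals between 35.9 and 1186. The candidate lists are the input to that step and hold background along with peaks: 30000 regions called on both replicates together (pooled, lowest signal 5.79), 29249 in replicate 1 (lowest 2.00) and 30000 in replicate 2 (lowest 4.69). Signal is the authors' own value per region on a scale that is not stated, so signals and ranks are read within a list only. Read depth is unknown. Genes are not replicates of a condition, so shares are given with Wilson 95% intervals that cover counting error over genes only, and no p-value is attached to them.

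The sequences behind the strongest regions are given first, so that the places discussed can be looked up. Each is the ce11 sequence (NCBI RefSeq) within 50 bp of a summit, plus strand, cut short where a UTR begins. Shown are 8 of the 9 IDR regions at nhr genes and, as the non-IDR example that carries the same hexamer as nhr-1, a region inside nhr-97. Capitals mark GACGCA or its reverse complement TGCGTC, the leading hexamer at IDR summits over the whole genome in earlier work on these lists. The windows are chrII:9603561-9603661 (nhr-19), chrV:5505175-5505252 (nhr-47), chrX:17513677-17513777 (nhr-1), chrV:11572991-11573055 (nhr-68), chrIV:9671178-9671278 (nhr-34), chrX:8475170-8475270 (nhr-14), chrX:13251662-13251762 (nhr-32), chrV:10069851-10069951 (nhr-192) and chrIV:9761565-9761665 (nhr-97).
nhr-19: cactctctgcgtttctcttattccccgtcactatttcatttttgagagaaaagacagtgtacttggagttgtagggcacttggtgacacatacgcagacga
nhr-47: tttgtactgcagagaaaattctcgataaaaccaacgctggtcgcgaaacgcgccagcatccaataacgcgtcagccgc
nhr-1: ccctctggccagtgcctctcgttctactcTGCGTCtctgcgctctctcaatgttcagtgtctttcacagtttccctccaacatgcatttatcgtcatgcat
nhr-68: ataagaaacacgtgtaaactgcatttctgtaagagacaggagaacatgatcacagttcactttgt
nhr-34: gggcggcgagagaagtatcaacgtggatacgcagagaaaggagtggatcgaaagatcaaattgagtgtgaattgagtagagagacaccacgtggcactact
nhr-14: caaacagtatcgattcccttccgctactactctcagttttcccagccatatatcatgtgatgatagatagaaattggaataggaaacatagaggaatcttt
nhr-32: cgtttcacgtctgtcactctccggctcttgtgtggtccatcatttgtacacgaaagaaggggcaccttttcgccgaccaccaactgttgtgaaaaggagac
nhr-192: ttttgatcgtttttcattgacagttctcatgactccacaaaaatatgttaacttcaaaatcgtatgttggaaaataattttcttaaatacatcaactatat
nhr-97: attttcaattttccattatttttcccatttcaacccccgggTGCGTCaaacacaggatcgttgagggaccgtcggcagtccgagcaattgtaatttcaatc

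The hexamer was about as frequent at nhr genes as in the lists overall. It occurred within 50 bp of 1 of the 9 IDR summits at members, that of nhr-1, where it starts 21 bp before the summit, and at 110 of all 704 IDR summits (15.6%). Around the 459 pooled summits near or inside members it occurred at 12 (2.61%), against 3.21% over the whole pooled list. The same shares were 3.20% and 3.25% in replicate 1 and 2.66% and 2.99% in replicate 2. The search covered both strands, and the word and its reverse complement cannot overlap. The 12 windows lie at nhr-1, nhr-23, nhr-34, nhr-85, nhr-95, nhr-97, nhr-105, nhr-114, nhr-119 and nhr-256, with a pair each at nhr-23 and nhr-97. Base composition of the printed windows varied widely, from 25.7% GC at nhr-192 to 51.5% GC at nhr-32.

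Few nhr genes had a region that passed IDR. Within 500 bp of the 5' end the count was 5 of 269 (1.86%, interval 0.796 to 4.28), against 1.72% of all protein-coding genes. Inside the gene it was 4 of 269 (1.49%, interval 0.580 to 3.76), against 1.13% of all genes, and it was 7 when the 704 strongest regions of replicate 2 alone replaced the IDR list. With either place allowed it was 9 (3.35%, interval 1.77 to 6.24), against 2.57%. These shares are close to the background, so the IDR list does not set the family apart from other genes.

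The strongest region of the family was inside nhr-19 on chromosome II (chrII:9603426-9603795). Its summit lay in an intron 1915 bp downstream of the 5' end, with a pooled signal of 59.5 and rank 170 of 30000. It was strong in each replicate, with signal 20.4 and rank 248 in replicate 1 and signal 39.9 and rank 223 in replicate 2. The gene is 7347 bp long and held 11 pooled summits, of which this was the strongest. No nhr gene had a region of higher rank than 170 in the pooled list.

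Next came nhr-47 on chromosome V (chrV:5505040-5505409), with signal 49 and rank 292. Its summit lay 28 bp upstream of the 5' end and was the closest to a 5' end among the IDR regions of the family. Replicate 1 placed it at rank 209 (signal 21.5) and replicate 2 at rank 703 (signal 27.3). The place is crowded: the summit is also 368 bp upstream of dnj-19, a DnaJ-domain chaperone gene, and lies inside the non-coding RNA gene C24G6.10, whose 5' end is 36 bp away. The 5' end of a further non-coding gene, C24G6.12, is 178 bp away. To which of these 4 genes the region belongs cannot be told apart from its position.

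At nhr-1 on X (chrX:17513542-17513911) the signal was 48.4 at rank 300, in intergenic sequence 336 bp upstream. Both replicates held it, at rank 556 (signal 15.1) in replicate 1 and rank 426 (signal 32.5) in replicate 2. It is the region whose printed sequence carries the hexamer.

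Among members with known metabolic roles, nhr-68 had the highest signal near its 5' end. With nhr-10 it acts in the switch to the propionate shunt, a pathway that breaks down propionate when vitamin B12 is scarce. Its region (chrV:11572820-11573189) had signal 46.4 and rank 344, with the summit 435 bp upstream. Replicate 1 gave rank 656 (signal 14.4) and replicate 2 rank 376 (signal 33.9). The same summit is only 15 bp upstream of the 5' end of the protein-coding gene H12C20.7, so the summit lies between both genes.

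Regulation of fatty acid desaturation and beta-oxidation is the best known role of NHR-49, an HNF4-related receptor. The nhr-49 gene had a region on chromosome I (chrI:9868993-9869362) with signal 40.8 and rank 509, 473 bp upstream in intergenic sequence. Replicate 1 held it at rank 332 (signal 18.5). Replicate 2 had no summit within 100 bp of it, and its nearest lay 135 bp away at rank 1009 (signal 24.0). Replicates thus agreed on the interval before the gene but not on the base of strongest enrichment.

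Regions inside genes were found at nhr-34, nhr-14 and nhr-192. In nhr-34 on IV (chrIV:9671043-9671412) the summit lay in an intron 4444 bp into an 11313 bp gene, with signal 41.6 and rank 475, and replicate ranks of 1189 (signal 11.4) and 590 (signal 29.2). In nhr-14 on X (chrX:8475035-8475404), a receptor gene tied to iron uptake and innate immunity in the intestine, it lay in an intron at 958 bp with signal 40.7 and rank 510. Both replicate ranks of the nhr-14 region were 704, at signal 13.9 in replicate 1 and signal 27.2 in replicate 2.

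The last of the 9 were less even between replicates. The nhr-32 region on X (chrX:13251527-13251896), 252 bp upstream, had a pooled signal of 37.6 (rank 639). It was strong in replicate 2 (rank 323, signal 35.3) and weak in replicate 1 (rank 10578, signal 4.37). The nhr-192 region on V (chrV:10069716-10070085) had signal 36.1 and rank 697, with its summit in a coding exon 740 bp into a gene of only 1273 bp. Its replicate summits were 75 bp before it in replicate 1 (rank 311, signal 18.9) and 91 bp after it in replicate 2 (rank 1647, signal 20.2).

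**Figure D1:**
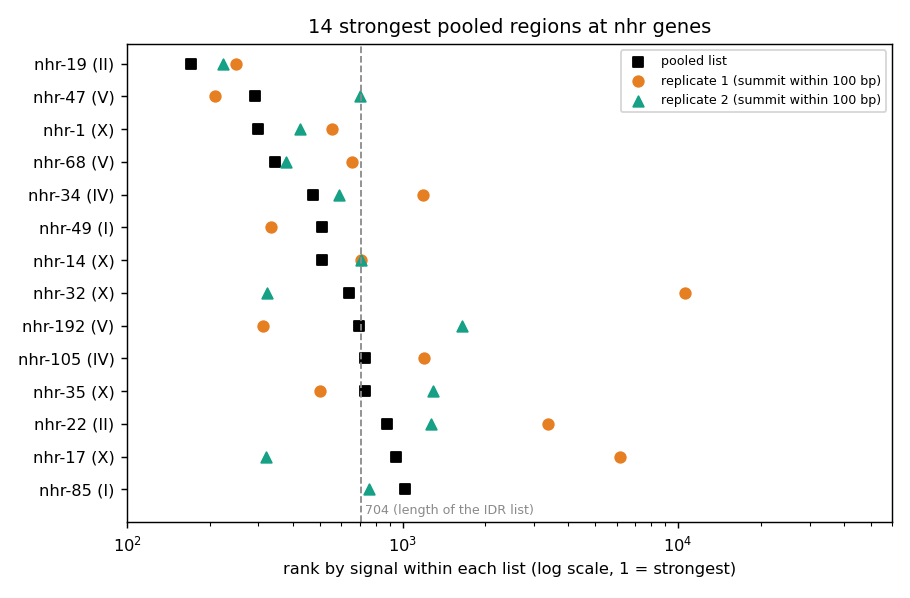
Ranks by signal (log scale, 1 = strongest) of the 14 strongest pooled regions at nhr genes, top to bottom, in the pooled list (squares), replicate 1 (circles) and replicate 2 (triangles), where the replicate has a summit within 100 bp; the dashed line marks rank 704, the length of the IDR list. The nhr-19 region ranks 170, 248 and 223, while the nhr-32 region ranks 323 in replicate 2 and 10578 in replicate 1.

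Just below the IDR limit of 35.9 stood 2 members with pooled signals of 35.4. One was nhr-105 on IV (rank 729), with the summit in a coding exon at 2977 bp, rank 1192 in replicate 1 and no replicate 2 summit within 100 bp. The other was nhr-35 on X (rank 731), 401 bp upstream, with rank 502 (signal 15.7) in replicate 1 and rank 1286 (signal 22.2) in replicate 2. The distance limit also has near neighbours: nhr-49 at 473 bp was the last IDR summit inside 500 bp, and nhr-192 at 740 bp and nhr-88 at 781 bp upstream (signal 38.4) were the first outside.

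The candidate lists gave a summit to more nhr genes than to genes in general. In the pooled list 96 of 269 members (35.7%, interval 30.2 to 41.6) had a summit within 500 bp of the 5' end, against 28.6% of all protein-coding genes. In replicate 1 the count was 95 (35.3%, interval 29.8 to 41.2), against 29.4%. In replicate 2 it was 96 (35.7%), against 29%. In each of these lists the share of all genes lies below the interval for the members, by little in replicate 1.

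Inside the gene the margins were smaller. The pooled count was 104 (38.7%, interval 33.0 to 44.6), against 33.9% of all genes. Replicate 1 gave 116 (43.1%, interval 37.3 to 49.1), against 40.7%, and replicate 2 gave 113 (42%, interval 36.3 to 48), against 35.3%. The share of all genes lies inside the interval in the pooled list and in replicate 1, and just below it in replicate 2. The median gene length was 2309 bp over members, against 2026 bp over all genes, and its part in these shares was not tested.

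The lists agreed on a part of the members. All 3 candidate lists placed a summit near the 5' end of 56 members (20.8%), against 15.8% of all genes, and both replicate lists did so for 60 (22.3%), against 17.0%. No candidate list did so for 133 members (49.4%), against 57% of all genes. Neither place had a summit in any list at 92 members (34.2%), against 39.4%.

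At the level of single summits, 459 pooled summits were near or inside members. Of these, 100 (21.8%, interval 18.3 to 25.8) had a summit within 100 bp in both replicates, against 20.4% of the whole pooled list. A replicate 2 partner (66.9%) was commoner than a replicate 1 partner (40.5%), as over the whole list (67.6% and 36.6%). Agreement followed strength: among the 7500 strongest pooled regions 44.5% of the 146 member summits had partners in both replicates, against 52.2% of all 7500, while among the 7500 weakest it was 0 of 86, against 1.61%. Most of the 459 summits at nhr genes therefore had a partner in 1 replicate or in neither.

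**Figure D2:**
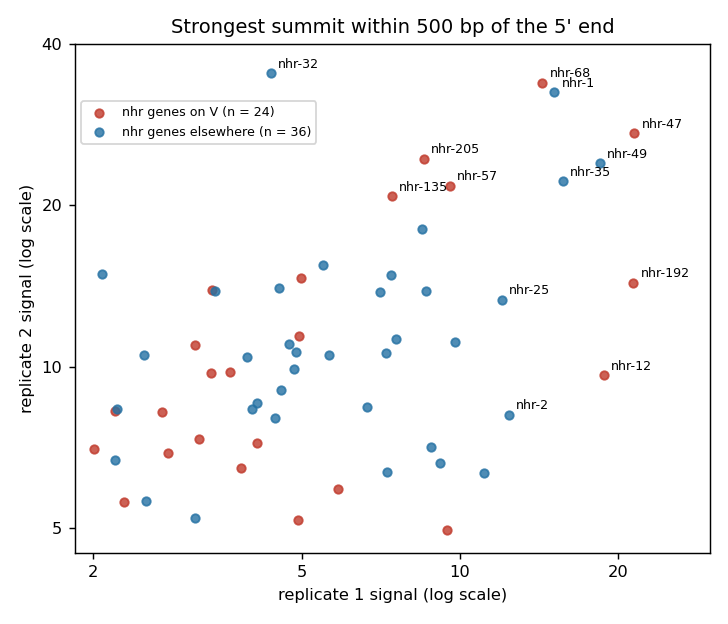
Signal of the strongest summit within 500 bp of the 5' end in replicate 1 (x axis, log scale) and replicate 2 (y axis, log scale) for the 60 nhr genes with such a summit in both, 24 on V (red) and 36 elsewhere (blue). nhr-47, nhr-49, nhr-68 and nhr-1 are high in both, nhr-32 in replicate 2 only, and nhr-192 and nhr-12 rank far higher in replicate 1 than in replicate 2.

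Members on chromosome V were next compared with members on the other chromosomes. Near the 5' end, 46 of 167 members on V had a pooled summit (27.5%, interval 21.3 to 34.8), against 50 of 102 elsewhere (49%, interval 39.5 to 58.6). The difference was -21.5 percentage points, with a Newcombe 95% interval of -32.9 to -9.55. Over all protein-coding genes, V also stood lower, with 20.6% against 31.2% on the other nuclear chromosomes, a difference of -10.6 points (interval -11.9 to -9.21). The estimated gap among nhr genes was wider than that among all genes, but the intervals overlap, and the difference between the gaps was not tested.

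Each replicate showed the same direction. In replicate 1, 51 of 167 members on V (30.5%) and 44 of 102 elsewhere (43.1%) had a summit near the 5' end, a difference of -12.6 points (interval -24.3 to -0.826), beside 23.4% of genes on V and 31.4% of genes elsewhere. In replicate 2 the counts were 46 (27.5%) and 50 (49%), a difference of -21.5 points (interval -32.9 to -9.55), beside 21.5% and 31.4%. The replicate 1 difference is smaller, and its interval nearly reaches 0.

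Inside genes the pattern was repeated. The pooled list had a summit in 47 members on V (28.1%, interval 21.9 to 35.4) and in 57 elsewhere (55.9%, interval 46.2 to 65.1), a difference of -27.7 points (interval -38.9 to -15.6), beside 23.3% of genes on V and 37.4% of genes elsewhere. Replicate 1 gave 60 (35.9%) and 56 (54.9%), a difference of -19.0 points (interval -30.5 to -6.73), beside 31.5% and 43.7%. Replicate 2 gave 54 (32.3%) and 59 (57.8%), a difference of -25.5 points (interval -36.8 to -13.3), beside 25.3% and 38.6%. All 3 intervals lie below 0.

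In the IDR list the counts were too small for such a contrast. Near the 5' end there were 2 on V (nhr-47 and nhr-68, 1.2% of 167) and 3 elsewhere (2.94% of 102), a difference of -1.74 points (interval -7.17 to 1.88), beside 1.12% of genes on V and 1.84% of genes elsewhere. Inside genes there were 1 on V (nhr-192) and 3 elsewhere, a difference of -2.34 points (interval -7.72 to 0.992), beside 0.721% and 1.19%. Neither interval leaves out 0.

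The nhr genes were also set against other genes of their own chromosomes. On V the pooled share near 5' ends was 7.14 points above that of other V genes (interval 0.818 to 14.4). Elsewhere it was 17.9 points above other genes (interval 8.41 to 27.5), and these intervals overlap. With either place allowed, replicate 1 had the opposite order, with 10.5 points on V (interval 2.92 to 18.2) and 8.38 elsewhere (interval -1.35 to 17.3). The excess on V included 0 near the 5' end in replicate 2 and inside genes in the pooled list and replicate 1. The lists themselves are thinner on V, with 220.8 pooled regions per Mb against 319.5 on the other nuclear chromosomes, and 5.02 IDR regions per Mb against 7.22.

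Among the other chromosomes the members did not behave alike. On IV 20 of 33 had a pooled summit near the 5' end (60.6%, interval 43.7 to 75.3), against 29.6% of all IV genes, and on X 13 of 23 (56.5%, interval 36.8 to 74.4), against 29.4%. On III it was 5 of 8, against 38.9%, and on II 6 of 15 (40%), against 24.5%. Chromosome I was the exception, with 6 of 23 (26.1%, interval 12.5 to 46.5), against 35.9% of all genes there. On IV and X the pooled interval lies above the share of all genes of the chromosome, and on I, II and III it includes that share. On X replicate 1 had 11 of 23, with an interval of 29.2 to 67 that includes the share of all X genes (820 of 2731).

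**Figure D3:**
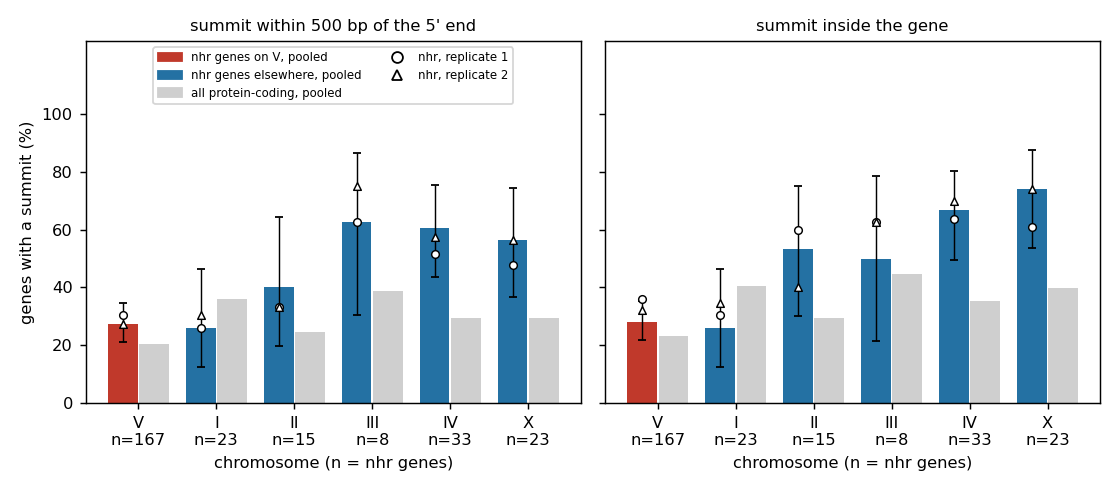
Percent of nhr genes (red on V, blue elsewhere) and of all protein-coding genes (grey) with a pooled summit within 500 bp of the 5' end (left) or inside the gene (right), by chromosome with V first; whiskers are Wilson 95% intervals, and open circles and triangles are the nhr shares in replicates 1 and 2. On IV the nhr share near 5' ends is 60.6% beside 29.6% of all genes, on V 27.5% beside 20.6%, and on I it is 26.1% beside 35.9%.

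Chromosome V was divided into 3 stretches of 6.97 Mb. In the middle stretch 18 of 41 members had a pooled summit near the 5' end (43.9%, interval 29.9 to 59.0), against 27.3% of the other genes there. In the left stretch it was 20 of 78 (25.6%, interval 17.3 to 36.3), against 19.4%, and in the right stretch 8 of 48 (16.7%, interval 8.70 to 29.6), against 13.7%. The order is that of the other V genes. The intervals of the middle and left stretches overlap, and in replicate 2, with 39% in the middle, 25.6% left and 20.8% right, those of all 3 do.

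Many V members are tandem neighbours, and the tandem runs differed from each other. Of the 167, 107 stand next to another nhr gene, and 29.9% of them had a pooled summit near the 5' end, against 23.3% of the 60 with no such neighbour. The longest run, 9 genes over 41.8 kb on V that include nhr-185 and nhr-124, had such a summit at 1 gene and no pooled summit inside any gene. A run of 7 genes over 17.3 kb that includes nhr-206 and nhr-136 had one at 5 genes, and the run of 6 genes that includes nhr-51 and nhr-198 at 0. The placing of reads that match several near-identical copies is not given in the sources used here. Its part in these counts was not tested.

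The lower share on V was seen among the longer genes and not among the shorter ones. Members on V had a median length of 2146 bp, and members elsewhere 3143.5 bp. Below 2500 bp, 29 members on V (24.4% of those of that length, interval 17.5 to 32.8) and 4 of 39 elsewhere (10.3%, interval 4.06 to 23.6) had a pooled summit near the 5' end, beside 18.1% and 26.7% of other genes of that length. From 2500 bp on it was 17 of 48 on V (35.4%, interval 23.4 to 49.6) and 46 of 63 elsewhere (73.0%, interval 61.0 to 82.4), beside 25.9% and 36.9% of other genes. Short members outside V were thus below other genes of their length, and long members outside V were well above theirs.

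The replicates gave the same picture. Among members of 2500 bp and over outside V, the share near the 5' end was 65.1% in replicate 1 (41 of 63, interval 52.8 to 75.7) and 71.4% in replicate 2 (45 of 63, interval 59.3 to 81.1), against 35.6% and 36.2% of other genes of that length. Among those below 2500 bp outside V it was 3 of 39 (7.69%) and 5 of 39 (12.8%), against 28.1% and 27.6%. On V the shares from 2500 bp on were 31.2% in each replicate, against 27.5% and 26.5% of other genes.

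Inside long genes the split between V and the rest was as wide. From 2500 bp on, 18 of 48 members on V (37.5%, interval 25.2 to 51.6) held a pooled summit, against 52 of 63 elsewhere (82.5%, interval 71.4 to 90.0). Other genes of that length held one in 41.3% on V and in 57.2% elsewhere. Per kb of gene, members on V had 0.213 pooled summits and members elsewhere 0.584. Other genes had 0.215 on V and 0.299 elsewhere, so that V members were close to other genes of their chromosome while members elsewhere were denser in summits than theirs.

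**Figure D4:**
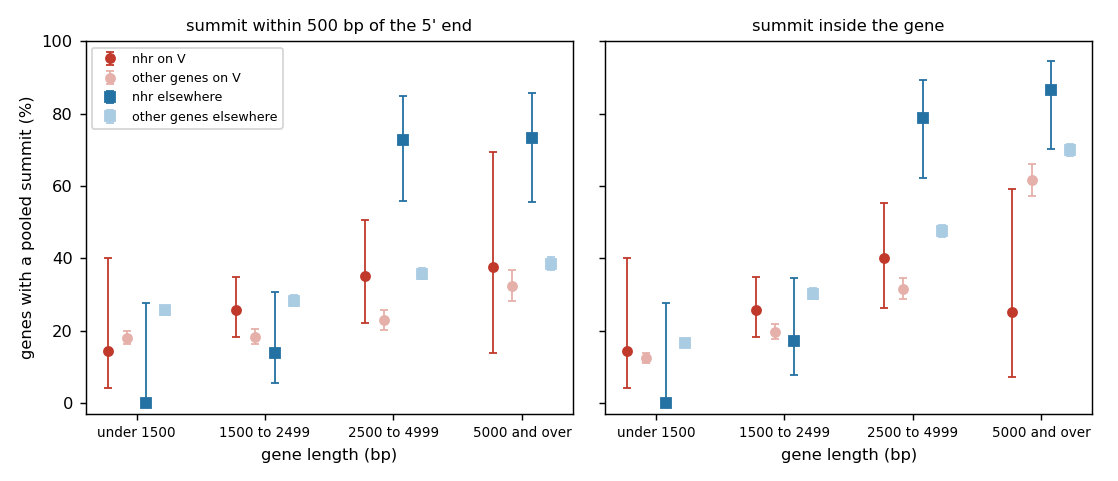
Percent of genes with a pooled summit within 500 bp of the 5' end (left) or inside the gene (right) in 4 classes of gene length (bp) for nhr genes on V (red circles), other genes on V (pale circles), nhr genes elsewhere (blue squares) and other genes elsewhere (pale squares); whiskers are Wilson 95% intervals. Near the 5' end, nhr genes elsewhere stand at 0 of 10 and 4 of 29 in the shorter classes and at 24 of 33 and 22 of 30 in the longer ones, while nhr genes on V stay between 14.3% and 37.5%.

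The places of summits inside genes were set beside the makeup of the genes. Of 386 pooled summits inside members, 250 were in introns (64.8%), 91 in coding exons (23.6%), 23 in 5' UTRs and 22 in 3' UTRs. Over all protein-coding genes introns held 62.7% and coding exons 24.9%. Coding sequence makes up 35.0% of member length and introns 56.6%, against 38.3% and 53.7% over all protein-coding genes. On V, 38 of 88 summits were in coding exons (43.2%) and 35 in introns (39.8%), where coding sequence makes up 46.8% of member length and introns 44.3%. Elsewhere 53 of 298 were in coding exons (17.8%) and 215 in introns (72.1%), where coding sequence makes up 25.4% and introns 66.5%. Outside V, coding exons thus held a smaller share of summits than of length, and introns a larger one. The same was so over all protein-coding genes. These differences were not tested.

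Around the 5' end, IDR summits of the family were all on the upstream side, at 5 of 5 members, against 296 of 331 nuclear genes (89.4%). The weaker candidates were more evenly spread: 59 of 96 members had their strongest pooled summit upstream (61.5%, interval 51.5 to 70.6), against 65.7% of genes. Replicate 1 gave 67.4% against 60.5%, and replicate 2 gave 54.2% against 64.1%. The members lie above the background in one replicate and below it in the other. Because trans-splicing removes the first bases of many worm transcripts, transcription may start upstream of the annotated 5' end.

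Levels repeated the split by chromosome. The strongest pooled signal near the 5' end had a median of 10.8 over the 46 V members with one and of 13.8 over the 50 elsewhere, against 11.6 over all genes with one. For all genes by chromosome these pooled medians were 11.2 on V and 11.7 elsewhere. Inside genes the medians were 9.87 on V and 16.1 elsewhere, against 10.9 over all genes. The highest near a 5' end was 49 on V (nhr-47) and 48.4 elsewhere (nhr-1), so the highest values of both groups were alike while the medians differed. In replicate 1 the medians near the 5' end were 3.37 on V and 4.85 elsewhere, against 4.11 over all genes. In replicate 2 they were 7.58 and 9.48, against 9.44, so members elsewhere were level with all genes there. The differences of medians were not tested.

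**Figure D5:**
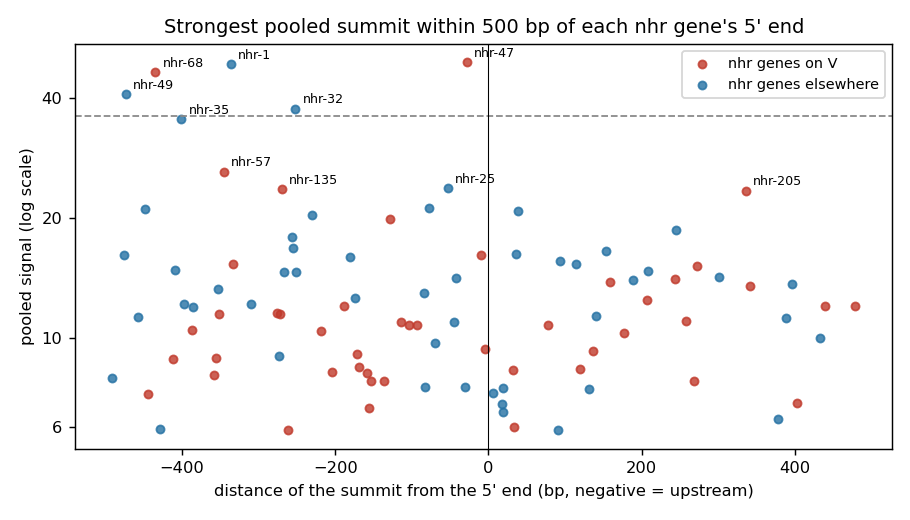
Strongest pooled summit within 500 bp of the 5' end for the 96 nhr genes with one: distance in bp (x axis, negative = upstream) and signal (y axis, log scale), on V in red and elsewhere in blue; the dashed line is the lowest signal of the IDR list, 35.9. The 5 points above the line are all upstream, from 28 to 473 bp, and the points below it lie on both sides.

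After the 5 members with an IDR summit there, the highest pooled signals near a 5' end were those of nhr-35 (35.4), nhr-57 (26.1), nhr-25 (23.7), nhr-135 (23.6) and nhr-205 (23.4). They were followed by nhr-14 (21.2), nhr-138 (21.0), nhr-64 (20.8), nhr-105 (20.4) and nhr-192 (19.9). Of these 10 genes 4 are on V. The nhr-205 summit lies 336 bp inside the gene, and nhr-12 next to it has an IDR region 1063 bp upstream (signal 38.7), outside the distance limit.

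A few members had strong summits inside and none near the 5' end. In nhr-22 on II the pooled signal was 32.7 in an intron at 808 bp, with replicate ranks of 3377 and 1266. In nhr-137 on X it was 26.9, in nhr-44 on V 17.8, in nhr-91 on X 16.4 and in nhr-27 on X 16.3. The nhr-27 gene, the longest of the family at 102756 bp, held 19 pooled summits and still none near its annotated 5' end.

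Of the 28 members in the role lists that follow, 22 are outside V, and the lists hold mostly long genes (median 5117.5 bp). Of 11 members with insect or vertebrate counterparts, 8 had a pooled summit near the 5' end (7 in replicate 1, 7 in replicate 2), against 28.6% of all genes. Inside the gene 9 of 11 had one, against 33.9%. An IDR summit was found at 0 of 11 at either place. Over all genes the IDR share was 1.72% near the 5' end and 1.13% inside, so 0 of 11 is close to the background. The highest near a 5' end was at nhr-25, the counterpart of Drosophila FTZ-F1 that acts in molting and epidermal development. Its pooled signal was 23.7 at 53 bp upstream, with rank 1038 (signal 12) in replicate 1 and rank 4739 (signal 13.4) in replicate 2. The pooled summit is closer to the 5' end of the non-coding RNA gene F11C1.12, 21 bp away. The 5' end of a further non-coding gene, F11C1.13, is 211 bp away. To which of these genes the region belongs cannot be told apart from its position.

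In nhr-23 and nhr-85, which also act in molting, the strongest pooled region was inside the gene, unlike in nhr-25. In replicate 2, however, the strongest nhr-25 summit was also inside, at 1153 bp (signal 16.6), against 13.4 near the 5' end. The gene nhr-23, counterpart of Drosophila Hr3 and vertebrate ROR, had a pooled signal of 7.94 at 491 bp upstream. In an intron at 3854 bp its pooled signal was 23.4. Replicate 1 had no summit near the 5' end of nhr-23. At nhr-85, related to Drosophila E75 and vertebrate Rev-erb, the pooled signal was 11.2 at 389 bp inside the gene. In an intron at 3162 bp it was 31.0. The replicates differed in which intronic summit led: in nhr-85 the strongest was at 1512 bp in replicate 1 (rank 948) and at 3112 bp in replicate 2 (rank 754).

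Near the 5' end, the other genes of that list had lower pooled signals than nhr-25, or none. The HNF4 counterpart nhr-64 had 20.8 at 39 bp inside the gene, and nhr-8, a relative of vertebrate VDR and LXR with roles in cholesterol balance and xenobiotic resistance, had 13 at 84 bp upstream. The values near the 5' end were 12.2 at nhr-48, 11.3 at nhr-41, a relative of the vertebrate testicular receptors, and 9.06 at nhr-6, the NR4A counterpart needed in the spermatheca. In nhr-41 the strongest pooled summit was intronic, at 2113 bp (25.9), with rank 1159 in replicate 1 and rank 4585 in replicate 2. That nhr-41 summit is also only 41 bp upstream of the 5' end of a tRNA gene. To which of these genes the region belongs cannot be told apart from its position. The tailless counterpart nhr-67, which acts in the anchor cell, had no pooled summit at either place and 1 weak replicate 2 summit inside (signal 7.24 at 4047 bp).

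Of 14 receptor genes of metabolism, diet and stress, 12 had a pooled summit near the 5' end (11 in replicate 1, 10 in replicate 2). The pooled share over all genes was 28.6%. Inside the gene 12 had a pooled summit, against 33.9% of all genes. In the IDR list 2 had one near the 5' end (nhr-49 and nhr-68), against 1.72% of all genes, and 1 inside (nhr-14), against 1.13%. The next by pooled signal near the 5' end was nhr-57, a gene induced in hypoxia, with 26.1 at 345 bp upstream, where replicate 2 had rank 1349 and replicate 1 its strongest summit at 116 bp upstream (rank 1900).

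The partner of NHR-68 in propionate metabolism was also covered: nhr-10 had 16.6 at 153 bp inside the gene, with a replicate 1 summit at rank 4033 and a replicate 2 summit 28 bp away at rank 8823 (signal 10.2). Weak regions stood at nhr-28 (11.0), nhr-114 (10.3), whose product protects the germ line on some bacterial diets, nhr-86 (8.40), nhr-66 (7.45), nhr-80 (6.86), a regulator of fatty acid desaturation, and nhr-62 (6.27), known from longevity under dietary restriction. No pooled summit was near the 5' end of nhr-13 or nhr-76.

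Receptors with roles in development other than those above were nhr-2, nhr-31, nhr-40 and nhr-60. The list shares nhr-6, nhr-23, nhr-25, nhr-67 and nhr-85 with the counterparts. Of its 9 genes, 7 had a pooled summit near the 5' end, against 28.6% of all genes. The signal near the 5' end was 16.9 at nhr-2, 14.8 at nhr-31, which acts in the excretory cell, and 13.3 at nhr-40. The 12730 bp gene nhr-40 held 21 pooled summits, the strongest 27.5 in an intron at 6221 bp, and has an IDR region 967 bp upstream of its 5' end (signal 37.7). At nhr-60 none of the lists had a summit at either place.

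Counted as one set, the 28 members with a listed role had a pooled summit near the 5' end at 22 (78.6%, interval 60.5 to 89.8), against 74 of the other 241 (30.7%, interval 25.2 to 36.8). Replicate 1 gave 71.4% and 31.1%, and replicate 2 gave 67.9% and 32%. The median length was 5117.5 bp in the set, against 2177 bp among the others, and its part in the difference was not tested. Of the 43 members of 2500 bp and over outside V with no listed role, 29 had a pooled summit near the 5' end (67.4%, interval 52.5 to 79.5). The share was 36.9% over other genes of that length outside V.

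Genes that work with the receptors were fixed as lists as well. Of 5 receptor genes without an nhr name, sex-1, an X-linked signal in sex determination, had a pooled signal of 17.4 near the 5' end, and daf-12, the dafachronic acid receptor of the dauer decision, 10.1. The genes fax-1, unc-55 and odr-7, which act in neurons, had no pooled summit there, but replicate 1 had a weak one at unc-55 (signal 2.95) and at fax-1 (2.39). Of 6 genes for coregulators and ligand synthesis 4 had a pooled summit near the 5' end, against 28.6% of all genes. These were mdt-15 (23.4), a Mediator subunit that works with NHR-49, daf-9 (19.1), a cytochrome P450 of dafachronic acid synthesis, cbp-1 (8.03) and dhs-16 (6.75). The corepressor gene din-1, whose product binds DAF-12, had an IDR region 13488 bp into the gene (signal 36.8, rank 671).

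Of 9 genes known as targets of NHR-49 or of NHR-10 and NHR-68, 5 had a pooled summit near the 5' end, against 28.6% of all genes, and 0 an IDR summit, against 1.72%. These were alh-8 (17.1), hach-1 (12.4) and hphd-1 (8.13) of the propionate shunt, the desaturase gene fat-6 (12.3) and the acyl-CoA synthetase gene acs-2 (11.1). The pooled list had none near fat-5, fat-7, acdh-1 or ech-6. Replicate 1 and replicate 2 each had 5 of 9 as well, 4 of them in both.

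Regions near member 5' ends were seldom shared with another coding gene, as was so for genes in general. Of the 133 pooled summits there, 9 (6.77%) were within 500 bp of more than 1 protein-coding 5' end. This compares with 9.96% of the 6514 pooled summits near any protein-coding gene, and the difference was not tested. In 3 cases the summit was near the 5' end of an nhr gene and also near the 5' end of another nhr gene or inside it. A non-coding 5' end was also within 500 bp at 25 of the 133, as at nhr-47, and the share over all genes was not counted.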

How the data were processed

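ChIP-seq peak lists of 2 biological replicates were used. Per the labels and the deposited inventory text, the authors called candidate regions on each replicate and on both together, each against a control, and made the IDR list from them; aligner, caller, IDR threshold and control strain are not given in the sources used here. The deposited lists give a signal value, a −log10 q-value and a summit offset per region. Signal was used for ranking, since q reached a shared ceiling (3.15 at 2113 pooled regions). Read depth is unknown. Lists in the ce10 build were not used, since no annotation of that build was used here.

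Summits (1-based) were set against protein-coding genes of Ensembl release 115, and ce11 sequence came from the NCBI RefSeq assembly. Counting was checked on simulated lists with planted summits. Shares have Wilson intervals and differences Newcombe intervals, both at 95%. The work used Python 3.11.15, matplotlib 3.10.9, scipy 1.17.1, pandas 2.3.3 and numpy 2.4.6.

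Members, role lists and the hexamer were chosen with earlier results of these data known, and length classes, stretches of V, tandem runs and the union of role lists were added after seeing values. Named are members with an IDR summit, the next 10 by pooled signal near the 5' end, the leading 5 with a summit only inside, up to 6 a role list (4 for other genes), and those beside the distance limit; further names (nhr-12, nhr-40 at its IDR region, nhr-97, the hexamer and tandem examples, and members or genes without a summit) were chosen after their values were seen. Alternatives were distances of 250 and 1000 bp, 5' ends of all transcripts, any overlap, a gene body extended upstream, the stronger 50% of each list, each replicate alone, and other partner and hexamer windows.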

Additional observations from a re-analysis of the deposited data

How the results depend on the processing

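Of 71 recomputed values, 54 stayed within 1.5 times the reported count or within the 95% interval of the reported share or difference. Near the 5' end, a distance of 250 bp left 1 member in the IDR list, 62 in the pooled list, 52 in replicate 1 and 63 in replicate 2, and 1000 bp gave 9 in the IDR list. The stronger 50% of each list left 3, 55 and 59 members near the 5' end in the IDR list, replicate 1 and replicate 2. Inside genes it left 1, 69, 77 and 69 in the IDR list, the pooled list, replicate 1 and replicate 2. With the gene body extended by 500 bp upstream, 9 members had an IDR summit. With the 704 strongest regions of one replicate in place of the IDR list, 5 (without replicate 2) to 7 (without replicate 1) members had one inside and 4 (without replicate 1) to 7 (without replicate 2) near the 5' end. Summits with partners in both replicates were 12.2% within 50 bp and 36.2% within 200 bp. The hexamer was found at 5.01% of member summits within 100 bp, against 6.13% of the list.

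The difference between V and other members stayed below 0 in the candidate lists under every alternative run, from -24.4 to -12.6 points in the pooled list near the 5' end and from -28.2 to -19.0 inside. In replicate 1 it ran from -17.6 to -8.34 near the 5' end and in replicate 2 from -24.8 to -19.1. In the IDR list near the 5' end it ran from -4.09 to 0.599, and 4 of 6 alternatives were below 0. Gene counts rest on annotated 5' ends, unknown depth, 2 replicates and candidate lists that include background.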
